A study of Homo sapiens with 6 samples.

Results

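Lysosomal hydrolases are the enzymes that take apart proteins, sugar chains and lipids inside the lysosome, and they were followed here as 43 genes of the 60656 in the count table. The genes were selected on enzyme identity, as soluble lysosomal enzymes and the proteins that activate them, at a time when a rise of lysosome genes in this same comparison was already known. Their changes are therefore given as a description, and no test was run over the list. The cells were parental ZR-75-1, an oestrogen receptor-positive human breast cancer line in which RB1 had not been knocked out. A group of 3 libraries came from cells given abemaciclib, an inhibitor of the kinases CDK4 and CDK6, at 500 nM for 4 days, and a group of 3 from cells given an equal volume of DMSO for 4 days. By the methods of the study, the replicates of a group were separate cultures. The isogenic RB1-knockout cells of the series were not analysed here.

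Most of these enzymes are made in the endoplasmic reticulum, receive a mannose 6-phosphate tag in the Golgi, and are carried by mannose 6-phosphate receptors to the lysosome, where the acid interior lets them work. The cathepsins are proteases, most of them with a cysteine in the active site. Glycosidases and sulfatases clip sugars and sulphate groups from glycoproteins, glycolipids and glycosaminoglycans one unit at a time, so a missing enzyme leaves its substrate to build up, as in the lysosomal storage diseases. Many of the genes carry a short palindrome close to their start sites, the CLEAR element, which is read by TFEB, TFE3 and MITF.

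The 6 libraries held between 3317860 and 4013156 counts. The reads came from the 3′ ends of polyadenylated transcripts, so a level is given in CPM, the counts of a gene relative to those of its library, scaled between libraries by the TMM method and not divided by transcript length. A count of 0 in a library allows up to 3 counts, or 0.740 to 0.909 CPM, a limit that covers counting error only. Abemaciclib replicate 3 stood apart from its group: its counts differed from those of the other replicates with a chi-square per degree of freedom of 6.98 and 7.41, against 2.83 to 4.21 for the other pairs of replicates, and mitochondrial transcripts took 18.3% of its counts against 15.6% to 16.6% in the other 5 libraries. All 8 luminal epithelial markers were detected. All 8 macrophage markers, among them PTPRC, CD14 and CSF1R, were at 0 counts in every library, and 5 of 8 fibroblast markers were too. The summed level of the fibroblast markers was 10.4 to 15.8 CPM with DMSO and 10.4 to 15.7 CPM with abemaciclib, nearly all of it from COL1A1.

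The promoters were also searched for the CLEAR element. Many lysosomal enzyme genes are known to carry it, so its frequency in this list depends in part on the choice of genes. RefSeq windows on GRCh38.p14, reaching from 250 bases before to 50 bases after the start of a gene, were matched for 31 of the 43 genes. The windows were searched on both strands for the E-box CACGTG, the core of the CLEAR element. It stood in the windows of 8 of the 31 genes (25.8%), against 8.77% of the 27305 genes of the whole promoter table. In each of these 8 genes at least one E-box was part of the longer TCACGTG or its reverse complement, which stood in 4.49% of all genes. The full palindrome GTCACGTGAC, which contains both shorter motifs, was found for GAA and GALNS, against 0.421% of all genes. The sites below are shown because they hold the E-box, each on the strand of its gene with the E-box in capitals. Only those of GAA and GALNS hold the full palindrome, and the others match 7 to 9 of its 10 letters. Further E-boxes of CTSA, CTSF and GALNS are not shown.
GAA at chr17:80101493-80101522, plus strand: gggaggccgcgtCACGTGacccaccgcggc
GAA at chr17:80101538-80101567, plus strand: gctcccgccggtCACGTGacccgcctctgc
GALNS at chr16:88857104-88857133, minus strand: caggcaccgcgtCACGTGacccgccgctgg
CTSA at chr20:45891281-45891310, plus strand: gaggaagactgtCACGTGgcgccggagttc
SUMF1 at chr3:4467265-4467294, minus strand: ggagggctcagcCACGTGaccaaccgggtc
CTSD at chr11:1763957-1763986, minus strand: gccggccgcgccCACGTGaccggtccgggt
NEU1 at chr6:31862930-31862959, minus strand: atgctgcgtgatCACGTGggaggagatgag
CTSF at chr11:66568712-66568741, minus strand: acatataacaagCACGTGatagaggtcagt
ARSB at chr5:78986101-78986130, minus strand: taattcaataagCACGTGactaaaggattt
The E-box of CTSD began 47 bases before the start site and that of SUMF1 13 bases before it. GAA had 2 full palindromes, and the E-boxes within them began 76 and 31 bases before its start. Of the 22 genes called higher with abemaciclib, only 14 had a window, and 5 of these held an E-box, namely CTSD, CTSF, GAA, NEU1 and SUMF1. Of the other 17 genes with a window, a set that mixes genes not called with genes not tested, 3 held one, namely CTSA, GALNS and ARSB. A link between the E-box and the rise was not tested. These matches are of letters only, and binding was not measured in these data.

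With abemaciclib, transcripts of lysosomal enzymes took a larger share of the library, and cathepsin D accounted for most of the gain. The 43 genes together took 0.222% to 0.238% of all counts in the DMSO libraries and 0.411% to 0.460% in the abemaciclib libraries. As a summed level this was 2233, 2316 and 2392 CPM with DMSO and 4659, 4239 and 4237 CPM with abemaciclib, and the groups did not overlap. CTSD, the aspartic protease cathepsin D, made up 65.8% of the net gain in mean summed level, and PSAP, the precursor of the saposins, made up 10.8%. Without CTSD the summed level was still 1619 to 1627 CPM with DMSO and 2275 to 2402 CPM with abemaciclib. These are bulk libraries, in which more RNA per cell and more cells of one kind cannot be told apart.

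**Figure D1:**
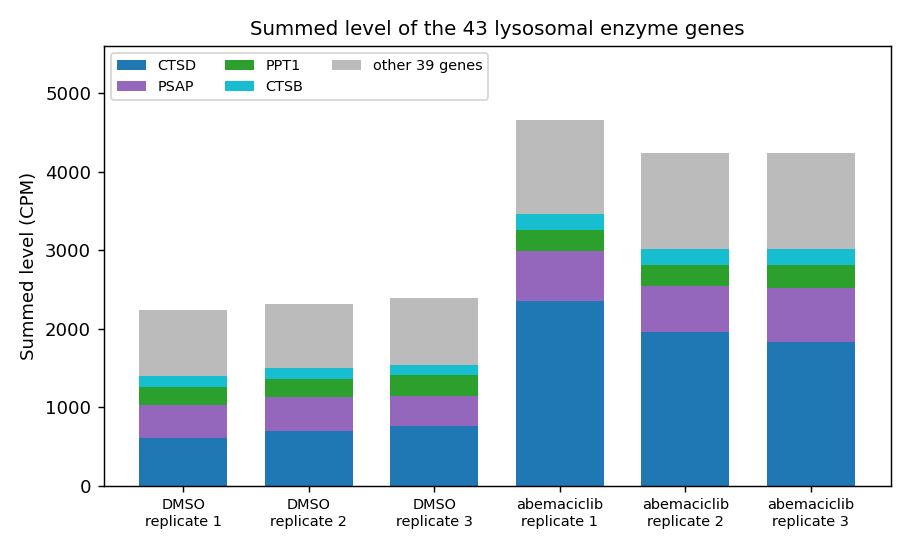
Summed level in CPM (y axis, linear, from 0) of the 43 genes in each of the 6 libraries (x axis), with CTSD, PSAP, PPT1 and CTSB drawn as separate segments. The 3 abemaciclib bars stand between 4237 and 4659 CPM and the 3 DMSO bars between 2233 and 2392 CPM, and the CTSD segment is the part that grew most.

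Of the 43 genes, 38 had enough counts to be tested, and 22 of them rose with abemaciclib. Here and in what follows a gene is said to rise, or to be called, when its adjusted P lay under 0.05 in edgeR's quasi-likelihood fit, with the adjustment made across every gene tested. Of all 10863 genes tested, 12.5% were called higher and 13.3% lower. No lysosomal enzyme was called lower by edgeR or by DESeq2 (1, CTSZ, was lower at an unadjusted P under 0.05). The median log2 fold change was 0.58 over the 38 genes and −0.00 over all genes tested, and 31 of the 38 had a positive value. In 19 of the 22 called genes the groups did not overlap, all abemaciclib libraries being the higher, and in IDUA, SMPD1 and SUMF1 the groups overlapped. GLB1, GALNS and PPT1 also had groups that did not overlap without being called, which brought the number of genes with all abemaciclib libraries above to 22, against 19.1% of all genes tested. GUSB alone had all of them below, a pattern found in 20.1% of all genes tested. Taking the DMSO mean of each gene as 0 on the log2 scale, the median over the 38 genes was 0.56 in each abemaciclib library and between 0.01 and 0.02 in the DMSO libraries.

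These counts rest on the replicates to different degrees. The number called higher was 17 without abemaciclib replicate 3, a fit in which 12.6% of all genes tested were higher, against 12.5% with all libraries. It was 12 without DMSO replicate 2, a fit in which 8.73% of all genes were higher. CTSB, CTSF, CTSD, GAA, GLA, HEXA, NEU1, ASAH1, PSAP and GM2A were the 10 genes called higher under every alternative run.

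**Figure D2:**
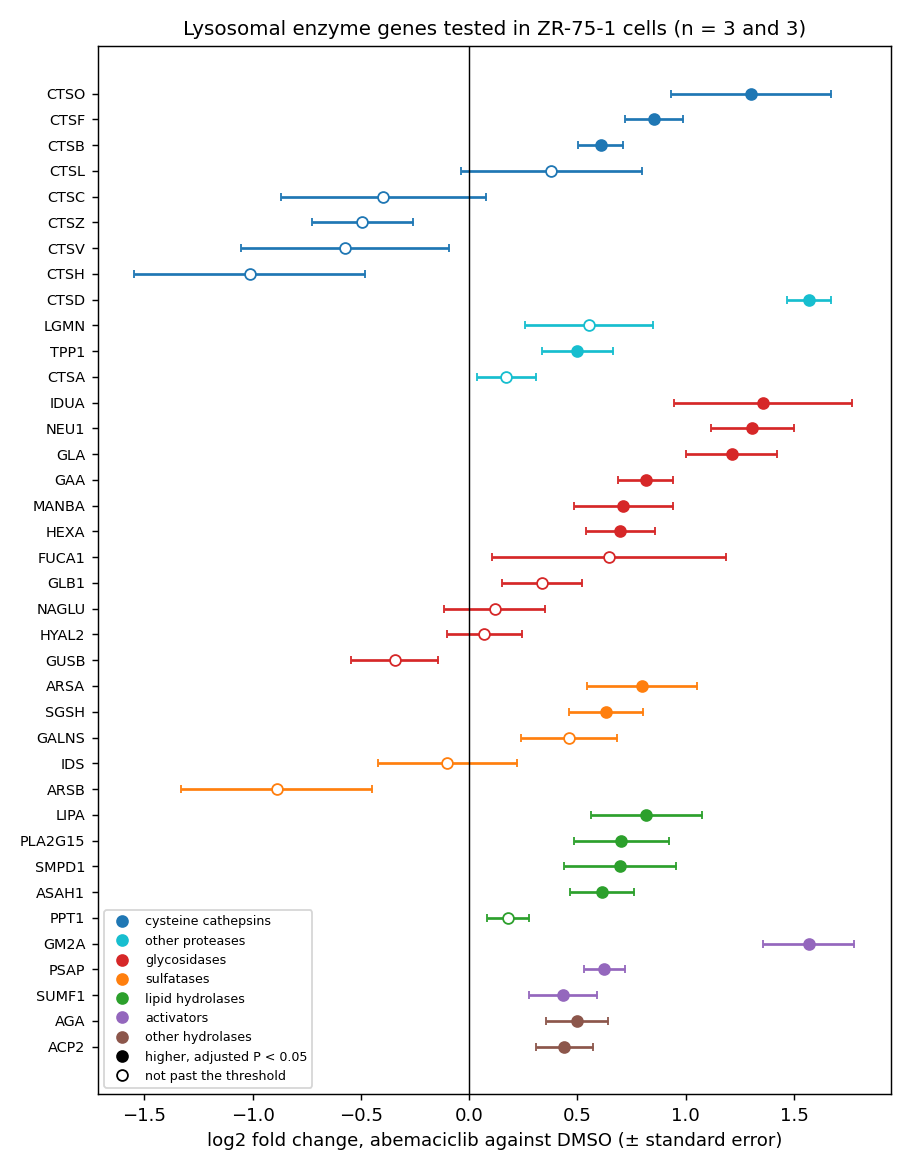
Log2 fold change of abemaciclib against DMSO (x axis) with its standard error for the 38 genes tested (y axis), coloured by enzyme class, with filled points for the 22 genes called higher. The lipid hydrolases and the activators all lie right of 0, and the points left of 0 are 4 cysteine cathepsins, GUSB, IDS and ARSB, none of them filled.

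Among the proteases, the aspartic protease CTSD, the serine protease TPP1 and the cysteine cathepsins CTSB, CTSF and CTSO rose, and the other 7 tested were not called. CTSD, on chromosome 11 of GRCh38 from 1752752 to 1764573, was at 608, 697 and 765 CPM in the DMSO libraries and at 2347, 1963 and 1835 CPM in the abemaciclib libraries. The lowest abemaciclib library lay far above the highest DMSO library, and the log2 fold change came to 1.57 (standard error, SE, 0.10; edgeR adjusted P = 8.03e-13). Of the exonic bases of CTSD, 1277 of 2055 are also annotated to a readthrough gene on the same strand, which held 0 counts, and the last 500 bases, where these reads fall, are not shared. TPP1, the serine protease that removes tripeptides from the ends of proteins, was at 43.8, 40.4 and 31.5 CPM with DMSO and 61.1, 55.8 and 47.0 CPM with abemaciclib. It rose by 0.50 on the log2 scale (SE 0.17; edgeR adjusted P = 0.0253), a call lost without DMSO replicate 2 or 3 or abemaciclib replicate 1 or 2, with log2 fold changes of 0.37 to 0.60 over the fits that each left out 1 library. LGMN, the asparaginyl endopeptidase legumain, and CTSA, the carboxypeptidase that also protects β-galactosidase and neuraminidase in a complex, had log2 fold changes of 0.55 and 0.17 and were not called. The last 500 exonic bases of CTSA include 200 that PLTP uses on the opposite strand, and PLTP held 1 count in all.

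The cysteine cathepsins split. CTSB, a widely expressed protease and the one with the most counts among them, was at 131, 129 and 133 CPM with DMSO and 197, 200 and 202 CPM with abemaciclib. Replicates of CTSB lay within a few CPM of each other and the groups were far apart, with a log2 fold change of 0.61 (SE 0.10; edgeR adjusted P = 4.49e-05). CTSF was at 66.4, 50.2 and 58.2 CPM with DMSO and rose to 115, 102 and 99.7 CPM, a log2 fold change of 0.85 (SE 0.13; edgeR adjusted P = 1.43e-05). CTSO had few counts, at 3.77, 6.54 and 4.54 CPM with DMSO and 7.56, 13.3 and 15.7 CPM with abemaciclib. Its log2 fold change of 1.30 (SE 0.37) was called, but not without abemaciclib replicate 3 (log2 fold change 1.09, edgeR adjusted P = 0.0520).

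The other 5 tested cysteine cathepsins were not called, and 4 of them had negative values. CTSZ, a carboxypeptidase, was at 22.9, 24.4 and 28.5 CPM with DMSO and 18.5, 22.9 and 12.2 CPM with abemaciclib, and its groups overlapped only narrowly. Its log2 fold change was −0.49, with a 95% interval from −0.97 to −0.02 before any adjustment and an adjusted P of 0.123 (edgeR). CTSZ was called lower only without abemaciclib replicate 2 (log2 fold change −0.72, adjusted P = 0.049, edgeR). CTSC, which activates the granule serine proteases, CTSH, an aminopeptidase, and CTSV, a close relative of CTSL, had log2 fold changes of −0.40, −1.01 and −0.57. Each was under 10 CPM in every library, and their 95% intervals ran from −1.37 to 0.57, from −2.11 to 0.08 and from −1.56 to 0.41, so changes of either direction could not be resolved at this depth. CTSL, the main endopeptidase of the family in many cells, was also low, with a log2 fold change of 0.38 (95% interval −0.48 to 1.23), and its 6 annotated pseudogenes held 0 counts. CTSK and CTSS, known from osteoclasts and antigen-presenting cells, had 1 count each in all 6 libraries together, in abemaciclib replicate 1.

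Of 11 glycosidases tested, 6 rose, and the median log2 fold change was 0.70. NEU1, the sialidase that removes terminal sialic acids, was at 21.2, 19.6 and 14.8 CPM with DMSO and 44.2, 42.4 and 51.3 CPM with abemaciclib. The groups of NEU1 were far apart, and the log2 fold change was 1.31 (SE 0.19; edgeR adjusted P = 5.46e-06). GLA, α-galactosidase A, on chromosome X from 101393273 to 101408012, was at 15.7, 14.6 and 12.7 CPM with DMSO and rose to 37.8, 32.1 and 30.0 CPM, by 1.21 on the log2 scale (SE 0.21; edgeR adjusted P = 6.63e-05). GAA, which breaks down glycogen, was at 57.4, 66.2 and 69.1 CPM with DMSO and rose to 124, 110 and 106 CPM, by 0.82 on the log2 scale (SE 0.13; edgeR adjusted P = 1.31e-05). IDUA, α-L-iduronidase, was at 2.61, 3.27 and 8.78 CPM with DMSO and 17.2, 12.3 and 8.11 CPM with abemaciclib. DMSO replicate 3 lay above abemaciclib replicate 3 for IDUA, and its call (log2 fold change 1.36, SE 0.41) was lost without DMSO replicate 1, DMSO replicate 2 or abemaciclib replicate 1, with log2 fold changes of 1.05 to 2.08 over the fits that each left out 1 library. HEXA, the α subunit of β-hexosaminidase, rose by 0.70 and MANBA, β-mannosidase, by 0.71, the latter call being lost without DMSO replicate 2 or 3 or abemaciclib replicate 3 (0.48 to 0.92 with 1 library left out).

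The other glycosidases were not called or had too few counts. GLB1, lysosomal β-galactosidase, whose activity at raised pH is the common stain for senescent cells, was at 25.2, 28.8 and 26.7 CPM with DMSO and 31.8, 37.5 and 32.4 CPM with abemaciclib. Its groups did not overlap, but its log2 fold change of 0.34 was not called (95% interval −0.04 to 0.71, adjusted P = 0.19, edgeR). GUSB, β-glucuronidase, was at 27.0, 26.4 and 28.5 CPM with DMSO and 19.7, 21.2 and 23.5 CPM with abemaciclib, all of them below the DMSO libraries, with a log2 fold change of −0.34 (95% interval −0.75 to 0.06, adjusted P = 0.221, edgeR). The 18 annotated GUSB pseudogenes held 56 counts against 514 for the gene. NAGLU, HYAL2 and FUCA1 had log2 fold changes of 0.12, 0.07 and 0.65 with standard errors of 0.23, 0.17 and 0.54. HYAL2 shares 509 exonic bases with TUSC2 on the same strand, none of them among its last 500. GALC, the galactosylceramidase lost in Krabbe disease, had 0 counts in all 6 libraries. MAN2B1, lysosomal α-mannosidase, had 0 counts in each DMSO library and 4, 2 and 3 in the abemaciclib libraries, too few for a test. All of its last 500 exonic bases are also annotated to a readthrough gene on the same strand, and the part of this overlap in the low counts was not tested.

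Of the 5 sulfatases, 2 rose. ARSA, the sulfatase of sulphated glycolipids, was at 13.3, 8.61 and 14.2 CPM with DMSO and 22.7, 22.7 and 17.6 CPM with abemaciclib. The groups of ARSA did not overlap, and its log2 fold change was 0.80 (SE 0.25; edgeR adjusted P = 0.0204), a call lost without DMSO replicate 2 or abemaciclib replicate 1 or 2 (0.60 to 0.93 with 1 library left out). SGSH, the sulfamidase of heparan sulphate, was at 30.7, 25.2 and 30.6 CPM with DMSO and rose to 47.8, 42.9 and 43.5 CPM, by 0.63 on the log2 scale (SE 0.17), a call lost without DMSO replicate 2 (0.54 to 0.68 with 1 library left out). Of its last 500 exonic bases, 56 lie opposite CARD14, which held 14 counts in all, so its counts are uncertain to that extent unless strand was used. GALNS, which acts on keratan sulphate, had a log2 fold change of 0.46 and groups that did not overlap, without a call. ARSB, which acts on dermatan sulphate, had a mean under 10 CPM over the 6 libraries and a log2 fold change of −0.89 (95% interval −1.80 to 0.02). IDS, iduronate sulfatase, had a value of −0.10, and 384 of its last 500 exonic bases are annotated to a readthrough gene on the same strand. SUMF1, the enzyme of the endoplasmic reticulum that makes every sulfatase active, was at 51.6, 42.8 and 49.4 CPM with DMSO and 51.4, 64.9 and 77.3 CPM with abemaciclib. Abemaciclib replicate 1 of SUMF1 lay inside the DMSO range, and its call (log2 fold change 0.43, adjusted P = 0.0428, edgeR) was lost with DESeq2, with total counts as the only scaling and in each fit without 1 library other than abemaciclib replicate 1 (0.29 to 0.57).

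Of 5 lipid hydrolases tested, 4 rose, and the median log2 fold change was 0.70. ASAH1, acid ceramidase, was at 44.1, 43.7 and 56.6 CPM with DMSO and rose to 64.4, 77.7 and 78.1 CPM, by 0.61 on the log2 scale (SE 0.15; edgeR adjusted P = 0.00257). LIPA, the acid lipase of cholesteryl esters and triglycerides, was at 14.8, 8.91 and 10.6 CPM with DMSO and 18.2, 19.98 and 22.4 CPM with abemaciclib. PLA2G15, the lysosomal phospholipase A2, was at 13.9, 22.6 and 20.6 CPM with DMSO and 28.7, 38.0 and 25.9 CPM with abemaciclib. Neither gene had overlapping groups, and the log2 fold changes were 0.82 for LIPA and 0.70 for PLA2G15. The call of LIPA was lost without DMSO replicate 2 or 3 or abemaciclib replicate 3 (0.66 to 1.05 with 1 library left out), and that of PLA2G15 without DMSO replicate 1 or abemaciclib replicate 2 (0.52 to 0.84). SMPD1, acid sphingomyelinase, was at 12.5, 10.7 and 16.7 CPM with DMSO and 22.4, 15.3 and 27.0 CPM with abemaciclib, with abemaciclib replicate 2 inside the DMSO range. Its call (log2 fold change 0.70, adjusted P = 0.0477, edgeR) was lost with DESeq2, with total counts as the only scaling, with a minimum of 10 counts per library, and without DMSO replicate 1 or 2 or abemaciclib replicate 1 or 3 (0.50 to 0.90 with 1 library left out). PPT1, a palmitoyl-protein thioesterase, was at 231 to 264 CPM with DMSO and 269 to 291 CPM with abemaciclib. The small difference of PPT1 was not called (log2 fold change 0.18, 95% interval −0.02 to 0.38), and PPT2 had 3 to 9 counts per library and was not tested.

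Both activators of glycolipid breakdown rose. GM2A, the protein that lifts GM2 ganglioside out of the membrane for β-hexosaminidase, on chromosome 5 from 151212150 to 151270440, was at 10.4, 14.0 and 12.4 CPM with DMSO and 35.1, 39.7 and 34.3 CPM with abemaciclib. The groups of GM2A were far apart, with a log2 fold change of 1.57 (SE 0.21; edgeR adjusted P = 1.53e-06), a 2.96-fold change beside 2.97-fold for CTSD. PSAP was at 426, 430 and 378 CPM with DMSO and rose to 640, 577 and 682 CPM, by 0.62 on the log2 scale (SE 0.10; edgeR adjusted P = 1.02e-05). AGA, which cuts the bond between asparagine and the sugar chain, and ACP2, lysosomal acid phosphatase, rose by 0.50 and 0.44. AGA was at 46.3 to 52.2 CPM with DMSO and 62.0 to 76.98 CPM with abemaciclib, and ACP2 at 54.8 to 59.7 CPM and 76.0 to 79.9 CPM. Both calls were lost without DMSO replicate 2, that of AGA also without abemaciclib replicate 2 (0.43 to 0.58 with 1 library left out) and that of ACP2 also without DMSO replicate 1 (0.41 to 0.47).

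**Figure D3:**
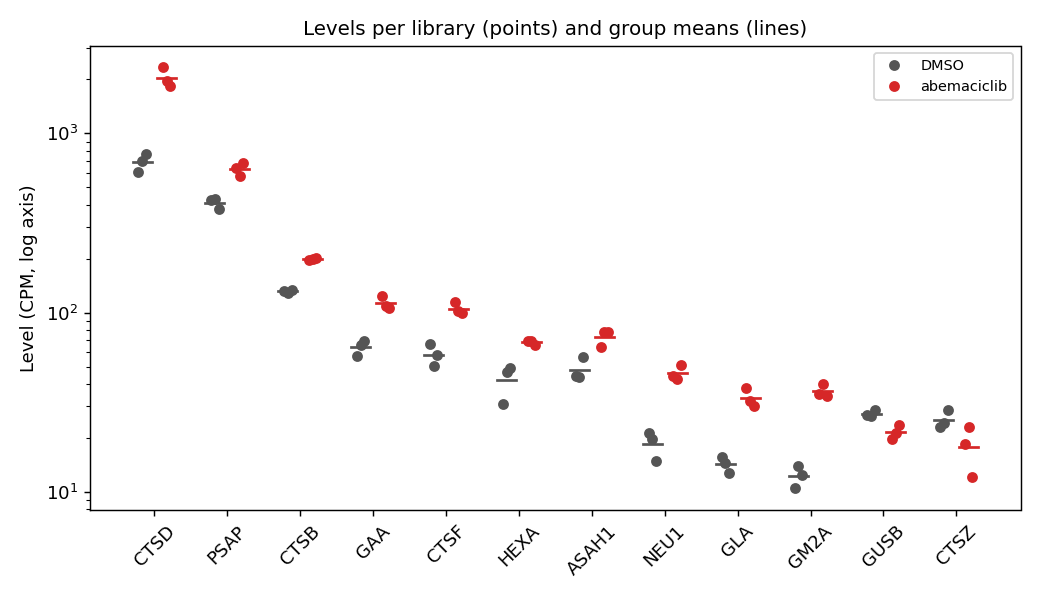
Level in CPM (y axis, log scale) of 12 of the genes in each DMSO and abemaciclib library (points), with lines at the group means. For CTSD, PSAP, CTSB, GAA, CTSF, HEXA, ASAH1, NEU1, GLA and GM2A all abemaciclib points lie above all DMSO points, for GUSB they lie below, and for CTSZ the groups overlap narrowly.

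Proteases were then set against the other hydrolases. Of 12 proteases tested, 5 were called higher (41.7%), and the median log2 fold change was 0.44. Of 21 glycosidases, sulfatases and lipid hydrolases tested, 12 were called higher (57.1%), and their median was 0.65. On the same log2 scale with the DMSO mean at 0, the median of the proteases was 0.45, 0.57 and 0.35 in the 3 abemaciclib libraries, and that of the other 3 classes was 0.60, 0.57 and 0.59. The protease median minus the median of the other classes was −0.15, 0.01 and −0.25 with abemaciclib and 0.03, 0.27 and −0.10 with DMSO, so the groups overlapped. Within the proteases, the median log2 fold change of the 8 cysteine cathepsins tested was −0.01 and that of the 4 others was 0.53. Level and class went together here: of the 8 genes tested with a mean under 10 CPM, 4 of which were among the 5 cysteine cathepsins that were not called, 2 were called higher, whereas of the 30 genes at 10 CPM or more, 20 were. The median log2 fold change was −0.01 under 10 CPM and 0.61 at 10 CPM or more, and standard errors were 0.37 to 0.54 in the first set and 0.10 to 0.32 in the second.

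**Figure D4:**
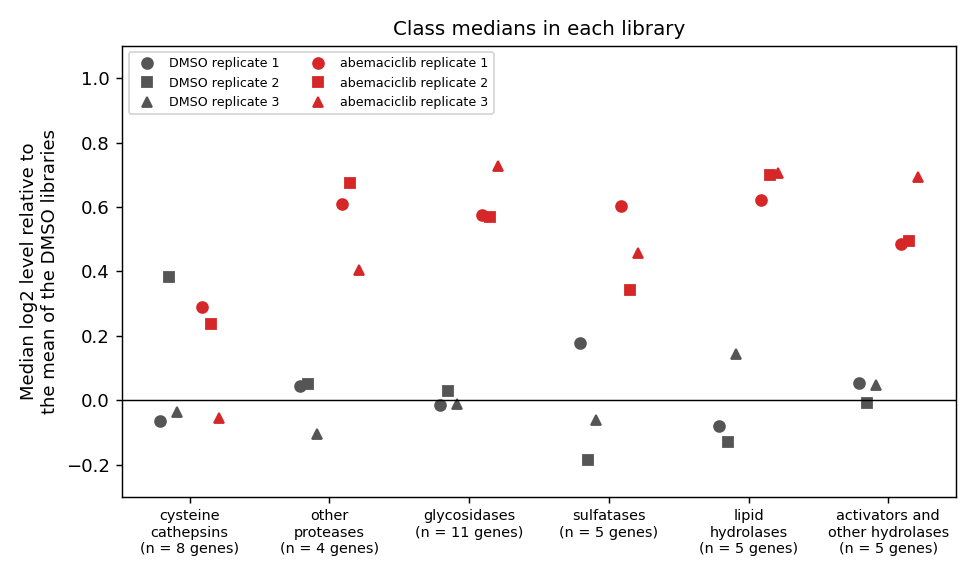
Median log2 level of each class, with the DMSO mean of each gene set to 0 (y axis), in each library (points, with a marker shape per replicate), for 6 classes (x axis, with the number of genes tested). Red points lie above grey points in every class except the cysteine cathepsins, where abemaciclib replicate 3 lies at −0.06 and DMSO replicate 2 at 0.38.

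The genes can also be grouped by the substrate they break down, a grouping made after their values were seen. Of 9 tested genes for sphingolipid breakdown (GLA, GLB1, HEXA, GM2A, PSAP, ARSA, ASAH1, SMPD1 and NEU1), 8 were called higher and GLB1 was the exception, and their median log2 fold change was 0.70. Their median relative to the DMSO mean was 0.73 to 0.77 in the abemaciclib libraries and −0.07 to 0.07 in the DMSO libraries. Of 10 genes for glycosaminoglycan breakdown (IDS, IDUA, SGSH, NAGLU, GUSB, ARSB, GALNS, HYAL2, GLB1 and HEXA), 3 were called higher, IDUA, SGSH and HEXA, and the median was 0.23. Of 5 tested genes for glycoprotein and glycogen breakdown (MANBA, FUCA1, AGA, NEU1 and GAA), 4 were called higher and FUCA1 was not. The groups share GLB1, HEXA and NEU1, and the difference between them was not tested.

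Lysosomal enzymes outside the 43 genes, and the proteins that deliver or inhibit them, were counted in the same fit. The share of all genes tested was 12.5% called higher and 13.3% called lower. Of 30 further enzymes and luminal proteins, 21 were tested, 13 were called higher and none lower by edgeR or DESeq2 (0 lower at an unadjusted P under 0.05). Their median log2 fold change was 0.66. SIAE, a sialic acid esterase, rose by 1.44 and CTBS, di-N-acetylchitobiase, by 1.43, although CTBS was under 10 CPM in every library and its call held in only 1 of the fits that left out 1 library, that without abemaciclib replicate 3 (1.09 to 1.64 over these fits). All of the last 500 exonic bases of SIAE lie opposite exons of TBRG1, which held 263 counts in all 6 libraries together. Those of GNPTG, below, all lie opposite UNKL, which held 884. Per library SIAE held 23 to 112 counts and GNPTG 70 to 304. The counts of both genes are therefore uncertain unless strand was used in counting. Of 10 genes that tag or carry the enzymes, 3 were called higher, and the median was 0.25. GNPTG, a subunit of the enzyme that adds the mannose 6-phosphate tag, rose by 1.11, with 27.3, 24.1 and 21.2 CPM for DMSO and 37.8, 36.8 and 82.1 CPM for abemaciclib, so that replicate 3 stood far above the other abemaciclib libraries. Without that replicate the log2 fold change of GNPTG was 0.62, still called (edgeR adjusted P = 0.0203). NAGPA, which uncovers the tag, had a log2 fold change of 0.85 with overlapping groups, a call lost with DESeq2, without DMSO replicate 2 or 3 and without abemaciclib replicate 1 or 2 (0.55 to 1.20 with 1 library left out). The third was IGF2R, a receptor for the tag, with a log2 fold change of 0.58. M6PR, the other receptor for the tag, whose 3′ end lies opposite PHC1, was at 158 to 181 CPM with DMSO and 180 to 190 CPM with abemaciclib and was not called. Of the cystatins, the inhibitors of cysteine cathepsins, 2 of 9 were tested, CSTB and CST3, with log2 fold changes of 0.24 and −0.03. With all libraries neither was called by edgeR or DESeq2 (1 higher and 0 lower at an unadjusted P under 0.05). Without abemaciclib replicate 3 CSTB was called higher (log2 fold change 0.30, adjusted P = 0.0084, edgeR).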

How the data were processed

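RNA from 6 libraries of parental ZR-75-1 cells was analysed, 3 per group, grouped by the treatment in the labels. The deposited values are raw counts per gene, without normalization. According to the methods and the labels, the authors used BBDuk to trim single-end 3′ mRNA reads, STAR 2.7.5b for alignment to hg38 and featureCounts 2.0.1 with a GENCODE annotation to count them; the strand setting is not given in the sources used here. Genes were matched to symbols by Ensembl identifier for 60401 of 60656. Positions and overlaps come from GENCODE release 44 on GRCh38.

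Abemaciclib was compared with DMSO by edgeR 4.0.16 under R 4.3.3 (glmQLFit and glmQLFTest with group as the only term, after filterByExpr and TMM), with Benjamini–Hochberg adjustment over 10863 genes and a threshold of 0.05. The standard error is the log2 fold change divided by the square root of F, and 95% intervals use the t distribution of that fit. Medians relative to the DMSO mean use log2 CPM with 0.5 added to each count. The total depth of 3317860 to 4013156 counts limits genes under 10 CPM most. Replicates of a group differed by more than sampling noise, so none was merged. The code of the test was checked on counts simulated with the dispersions of its own fit. Such a check cannot show how well that fit suits these data.

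The members and lists were chosen with earlier results of these data known, and the 3 substrate groups after the values were seen. Named in full were, per class, the 4 called genes with the largest change, and the 2 largest called rises and falls of each pathway list; any further gene was picked with its values in view. Alternatives were DESeq2 1.42.0, its size factors in edgeR, total counts, no low-count filter, at least 10 counts in every library, a replicate block and each library left out. Some single genes of the wider lysosome lists are not reported here.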

Additional observations from a re-analysis of the deposited data

How the results depend on the processing

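Refits changed 1 choice at a time, except that DESeq2 brought its own scaling with its test and that the low-count filter was applied anew where a library was left out. The number of the 43 genes called higher was 22 in the main analysis. In that fit 12.5% of all genes tested were called higher, a share given in brackets for each refit. The number was 20 with DESeq2 (11.2%), 20 with scaling by total counts alone (11.7%) and 20 where each library had to hold 10 counts (12.9%). It was 22 with DESeq2's size factors (12.6%) and 22 where low counts were not filtered (6.53%). When each library was left out in turn it was 12 to 18 (8.73% to 12.6%). None was called lower, except 1 (CTSZ) without abemaciclib replicate 2, so that the count of lower genes among all members and among proteases ran from 0 to 1. Of the 22 genes, 10 stayed called in every alternative and 12 lost the call in at least 1, most of them when a library was left out, which also leaves fewer samples. The median log2 fold change of the members was 0.58 with DESeq2 and with its size factors, 0.56 with total counts, 0.61 without a filter, 0.60 with a minimum of 10 counts per library, and 0.50 to 0.58 with 1 library left out.

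The replicate numbers did not pair the samples: deviations of same-numbered DMSO and abemaciclib libraries correlated at −0.04, 0.01 and −0.08. With the replicate block 21 members were called higher, beside 10.5% of all genes tested, and the median of the members was 0.59. SUMF1 lost its call, as did CTBS among the other lysosome genes named.

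With 1 library left out, medians ran from 0.32 to 0.56 for proteases, 0.48 to 0.78 for glycosidases, 0.55 to 0.76 for lipid hydrolases, 0.65 to 0.83 for the further lysosomal enzymes and 0.14 to 0.25 for enzyme delivery. The number called higher ran from 0 to 2 for sulfatases, 2 to 3 for lipid hydrolases, 2 to 5 for activators and other hydrolases and 0 to 1 for cystatins. The cystatin median changed sign to −0.026 with no filter on low counts, which let more genes in. Genes that were not called and changed sign with 1 library left out included the following, with log2 fold changes from −0.16 to 0.25 for NAGLU, −0.0052 to 0.16 for HYAL2, −0.28 to 0.15 for IDS, −0.12 to 0.064 for GGH, −0.012 to 0.13 for GNPTAB, −0.083 to 0.13 for GGA2 and −0.16 to 0.12 for CST3; the cause was not tested. Depth limited the genes under 10 CPM, whose standard errors were 0.37 to 0.54.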
